A study of Rattus norvegicus with 8 samples.

Results

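Transcripts of 10 neuronal calcium-binding proteins (Pvalb, Calb1, Calb2, Nrgn, Hpca, Hpcal4, Ncald, Vsnl1, Ncs1 and Necab1) were followed in cultured rat hippocampal neurons exposed to PAM, a compound that enhances NMDA receptors as a positive allosteric modulator, or to vehicle. The genes were chosen by symbol, as well-known members of this functional class, with earlier results of these data known. Counts of changed members are therefore a description, given beside the share of all tested genes. Each member matched 1 Ensembl gene among the 32623 annotated in the count files. All 10 passed the filter on low counts that left 11740 genes for testing. The 4 PAM libraries came from wild-type SD rat cultures at 18 days in vitro given the modulator, and the 4 vehicle libraries came from cultures of the same strain, genotype and age given vehicle. Neither the identity and dose of the modulator nor how long it was applied is given in the sources used here. Whether replicates came from different culture preparations is also unstated. The p-values therefore measure the spread between these libraries, which may be technical.

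Calcium entering through NMDA receptors and voltage-gated channels is caught in the cytosol by proteins that carry EF-hand loops. Parvalbumin (Pvalb), calbindin (Calb1) and calretinin (Calb2) act mainly as buffers, which shorten or blunt calcium transients, and in the hippocampus they mark classes of interneurons; Calb1 also marks dentate granule cells. Proteins of the neuronal calcium sensor family, here Hpca, Hpcal4, Ncald, Vsnl1 and Ncs1, bind calcium, change shape and act on membranes, channels and enzymes. Neurogranin (Nrgn) is no EF-hand protein but a postsynaptic reservoir that holds calmodulin when calcium is low.

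In the PAM libraries members of this class moved in both directions. All 5 neuronal calcium sensor genes among the members fell, from 0.594 of the vehicle mean for Ncs1 to 0.79 of it for Ncald. The buffers Pvalb and Calb1 and the calmodulin-binding Nrgn rose, to 2.72, 1.46 and 1.78 times the vehicle mean. Calb2 and the EF-hand gene Necab1 did not pass the test. In total 8 of 10 members changed (quasi-likelihood F test of edgeR with p under 0.05 after Benjamini-Hochberg adjustment over all tested genes), against 18.9% of all tested genes. Higher levels were called for 3 of 10 members, against 9.0% of all tested genes, and lower levels for 5 of 10, against 9.89%. The PAM and vehicle groups did not overlap in 8 of 10 members, against 22.3% of all tested genes; the PAM libraries lay above in 3 (10.3% of tested genes) and below in 5 (12% of tested genes). The median log2 fold change, PAM over vehicle, was -0.30 over the members and 0.02 over all tested genes. In these bulk libraries fewer cells of a type and less RNA per cell cannot be told apart.

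The libraries held 2960406 to 4389430 gene counts. Levels are given as CPM, counts scaled to library totals adjusted by TMM (trimmed mean of M values) over the tested genes. PAM 3 and PAM 4 stood apart from the other libraries: their counts fell with exonic length, by slopes of -0.09 and -0.13 in log2 CPM for each doubling of length, while slopes of the remaining 6 were 0.01 to 0.06. Results on each gene are given without these libraries where that changed them. Neuronal markers were present in both groups, with a summed level of 11 pan-neuronal genes of 4407 to 5666 CPM in PAM libraries and 5604 to 6313 CPM in vehicle libraries.

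Promoter sequence is shown for the members at both ends of the response for which a window was at hand, the higher Pvalb and Nrgn and the lower Hpcal4 and Ncs1, the 2 members whose patterns across the libraries were the most alike. Each window runs 250 bases before to 50 after the transcription start on the gene's strand (RefSeq, build GRCr8), and 6 of 10 members matched a window. Capitals mark matches on either strand to the cAMP response element core TGACG, the E-box of NeuroD type CAGATG or the palindromic E-box CAGCTG. Pvalb lies at chr7:111666240-111666539 (minus strand), Nrgn at chr8:45452368-45452667 (minus strand), Hpcal4 at chr5:140739658-140739957 (plus strand) and Ncs1 at chr3:34920699-34920998 (plus strand) of GRCr8. The strand of each window is that of the gene in GRCr8; for Ncs1 it is plus there and minus in the Rnor_6.0 annotation of the count files.
Pvalb: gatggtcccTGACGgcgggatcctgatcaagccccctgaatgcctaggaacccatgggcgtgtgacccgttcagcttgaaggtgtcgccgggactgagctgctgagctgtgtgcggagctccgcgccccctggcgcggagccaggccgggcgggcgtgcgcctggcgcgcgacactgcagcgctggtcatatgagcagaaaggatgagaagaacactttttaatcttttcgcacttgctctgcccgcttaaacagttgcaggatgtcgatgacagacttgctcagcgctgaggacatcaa
Nrgn: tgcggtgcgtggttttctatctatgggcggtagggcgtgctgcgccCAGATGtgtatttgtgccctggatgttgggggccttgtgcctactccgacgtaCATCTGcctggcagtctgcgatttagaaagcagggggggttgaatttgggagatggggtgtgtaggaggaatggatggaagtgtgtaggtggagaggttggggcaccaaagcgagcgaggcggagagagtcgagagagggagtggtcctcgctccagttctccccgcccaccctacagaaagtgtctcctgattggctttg
Hpcal4: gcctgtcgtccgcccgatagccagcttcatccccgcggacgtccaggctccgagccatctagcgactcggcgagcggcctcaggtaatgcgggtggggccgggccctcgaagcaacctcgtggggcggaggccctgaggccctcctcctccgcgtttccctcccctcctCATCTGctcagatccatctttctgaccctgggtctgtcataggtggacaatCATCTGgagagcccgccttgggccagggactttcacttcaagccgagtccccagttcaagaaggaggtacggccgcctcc
Ncs1: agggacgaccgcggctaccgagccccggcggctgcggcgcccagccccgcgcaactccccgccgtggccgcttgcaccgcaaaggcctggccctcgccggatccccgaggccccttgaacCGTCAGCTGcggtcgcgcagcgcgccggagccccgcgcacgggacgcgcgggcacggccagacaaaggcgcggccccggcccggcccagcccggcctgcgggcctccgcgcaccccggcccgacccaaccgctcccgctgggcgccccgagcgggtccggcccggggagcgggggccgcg
The core TGACG was found once in the Pvalb window (first base at -241 from the start), once in that of Ncs1 (-130) and once in that of Hpca (-12); 21.2% of the 33469 windows of this length in the table hold it. The Ncs1 match overlaps its CAGCTG match, a motif held by 15.1% of windows. CAGATG was found at 2 places each in the Nrgn (-204 and -151) and Hpcal4 (-81 and -30) windows and once in that of Vsnl1 (-171), and 16.6% of all windows hold it. The full cAMP response element TGACGTCA, the AP-1 site TGANTCA, the EGR site GCGNGGGCG and the TATA box TATAAA were searched on both strands and matched in none of the 6 windows. They are held by 1.83%, 7.33%, 4.98% and 14.2% of all windows. A higher and a lower member thus share CAGATG, and another such pair shares TGACG.

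Among the cytosolic buffers, Pvalb (ENSRNOG00000006471; Rnor_6.0 chromosome 7, 119429019 to 119441487, minus strand, 537 exonic bases) is the marker of fast-spiking interneurons. It had 25.6, 22.6, 25.2 and 30.3 CPM in PAM 1 to 4, against 10.7, 11.8, 6.57 and 9.06 CPM in vehicle 1 to 4. Every PAM library was above every vehicle library, and the lowest PAM library was well clear of the highest vehicle one. The log2 fold change was 1.43 ± 0.23 (SE; edgeR, Benjamini-Hochberg adjusted p = 0.000286), and 1.47% of tested genes had a higher one. These levels rest on 84 to 111 counts per PAM library and 21 to 43 per vehicle library. Pvalb rose in each of the 18 alternative fits, at log2 fold changes of 1.24 to 1.56.

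Calb1 (ENSRNOG00000007456; chromosome 5, 29538380 to 29562773, plus strand) encodes calbindin, a buffer of granule cells and of some interneurons. Its level was 129, 124, 106 and 107 CPM in PAM 1 to 4, against 73.2, 72.4, 85.2 and 87.7 CPM in vehicle 1 to 4. The groups did not overlap, and PAM 1 and PAM 2 were the highest. The mean was 116 ± 11.7 CPM with PAM and 79.6 ± 7.95 CPM with vehicle (SD, n = 4 each), a log2 fold change of 0.55 ± 0.12 (SE; edgeR, Benjamini-Hochberg adjusted p = 0.00308). Calb1 also passed in all 18 alternatives, at 0.49 to 0.68.

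Calb2 (ENSRNOG00000016977; chromosome 19, 41482728 to 41509658, plus strand), which encodes calretinin, was at 74.4, 88.3, 124 and 104 CPM in PAM 1 to 4 and at 82.3, 106, 116 and 98 CPM in vehicle 1 to 4. The highest and the lowest of the 8 values were both from PAM libraries, so the groups overlapped fully. The log2 fold change was -0.05 ± 0.15 (SE; edgeR, Benjamini-Hochberg adjusted p = 0.87). It was -0.29 without PAM 3 and PAM 4 (adjusted p = 0.115).

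**Figure D1:**
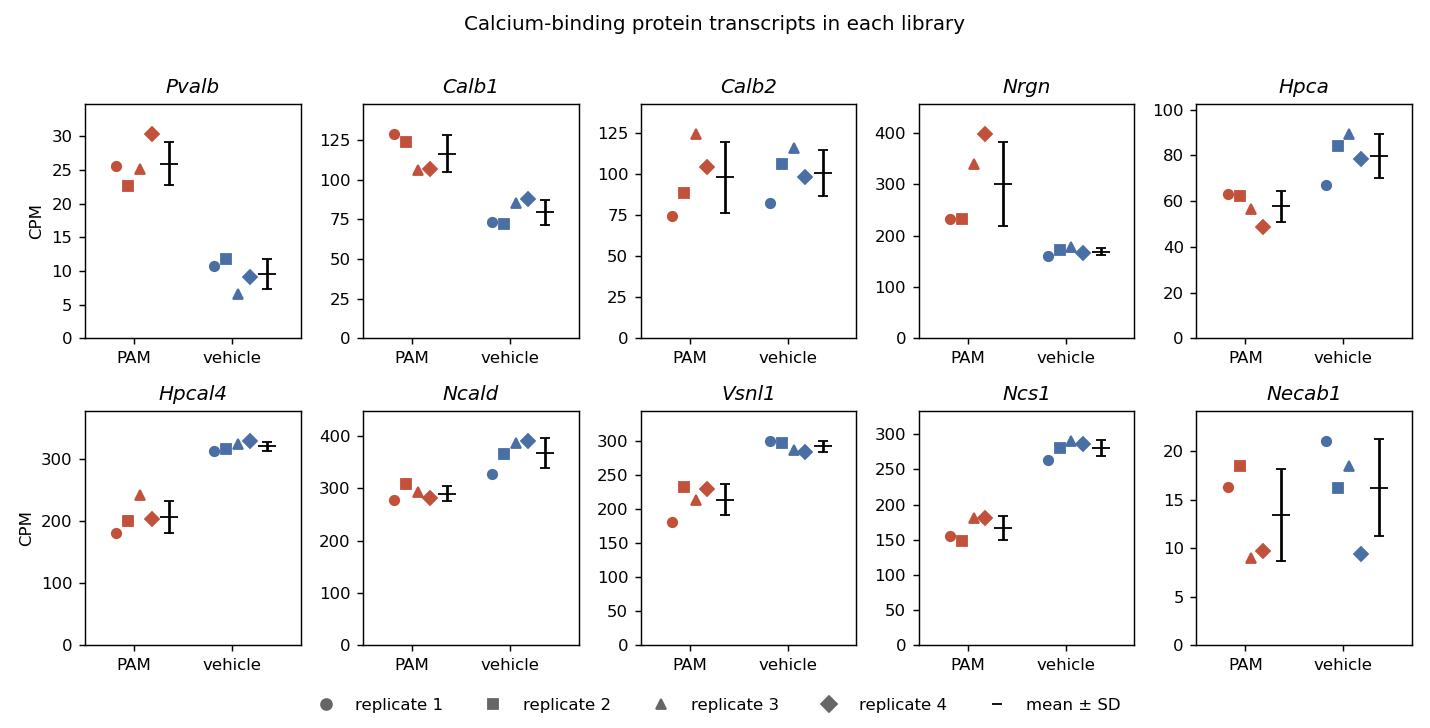
Level (CPM, linear axis from 0) of each of the 10 genes in each library, PAM left of vehicle; each symbol is 1 library and the black bar is the mean ± SD of 4. Pvalb, Calb1 and Nrgn lie higher in all PAM libraries, the 5 calcium sensors (Hpca, Hpcal4, Ncald, Vsnl1 and Ncs1) lie lower, and Calb2 and Necab1 overlap.

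The unequal behaviour of the buffers was tested by the log2 ratio of their counts within each library, which needs no scaling factor. Such a ratio still carries the length trend of PAM 3 and PAM 4, as Pvalb has 537 exonic bases, Calb1 1705 and Calb2 1494. The Pvalb to Calb2 log2 ratio was -1.54, -1.96, -2.29 and -1.78 in PAM 1 to 4, against -2.93, -3.15, -4.11 and -3.41 in vehicle 1 to 4. The Pvalb to Calb1 log2 ratio was -2.33, -2.45, -2.07 and -1.82 in PAM 1 to 4, against -2.76, -2.60, -3.66 and -3.25 in vehicle 1 to 4. In both pairs the groups did not overlap and the ratio was higher with PAM, by 1.51 log2 units for Pvalb over Calb2 and by 0.90 for Pvalb over Calb1. Without PAM 3 and PAM 4 these differences were 1.65 and 0.68. With all 8 libraries the 2 pairs were tested as follows. Each reached the smallest two-sided p that an exact permutation test of 4 against 4 libraries can give, 0.0286, which was 0.0743 after Benjamini-Hochberg adjustment over the 13 pairs tested. The Calb1 to Calb2 log2 ratio was higher by 0.60 with overlapping groups (exact permutation p = 0.0857, adjusted p = 0.186). The overlap came from PAM 3, at -0.23 against -0.55 to -0.16 in vehicle libraries. Without PAM 3 the difference was 0.77 (exact permutation p = 0.0571, the smallest possible there), and without PAM 3 and PAM 4 it was 0.97. Over the 8 fits without 1 library it ran from 0.43 to 0.77 (exact permutation p from 0.0571 to 0.171). A difference in response between Calb1 and Calb2 was thus not shown, although Calb1 passed its own test and Calb2 did not. No pair passed after adjustment.

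Markers of inhibitory neurons, which carry these buffers, were not higher with PAM: 4 of 11 tested fell and 0 rose (edgeR, Benjamini-Hochberg adjusted p under 0.05), at a median log2 fold change of -0.55. Without PAM 4, 7 of 12 tested fell, and without both PAM 3 and PAM 4, 8 of 12. In each fit without PAM 1, vehicle 1 or vehicle 4, 3 of 11 tested fell. Slc32a1, the vesicular GABA transporter gene, averaged 75.9 ± 3.77 CPM with PAM and 146 ± 8.5 CPM with vehicle (SD, n = 4 each). The summed level of the 12 matched inhibitory markers was 1527 to 2355 CPM in PAM libraries and 2337 to 2677 CPM in vehicle libraries, and none of the 12 was at 0 in all libraries. Parvalbumin is also abundant in fast skeletal muscle; the 4 matched muscle markers summed to 4.11 to 15.5 CPM in PAM libraries and 12.4 to 14.6 CPM in vehicle libraries. Markers of 3 other cell types were higher with PAM. Among them 4 of 5 tested ependymal and choroid plexus markers rose, and their 7 matched genes summed to 116 to 192 CPM in PAM libraries, against 37.3 to 54.3 CPM in vehicle libraries. Of 10 oligodendrocyte lineage markers 5 rose and 1 fell (0 fell without PAM 1, PAM 3, vehicle 1 or vehicle 2, or without both PAM 3 and PAM 4), with sums of 1350 to 1747 CPM in PAM libraries and 957 to 1069 CPM in vehicle libraries. Astrocyte markers rose in 4 of 9 tested genes, with sums over 10 matched genes of 7809 to 9602 CPM with PAM and 5461 to 5755 CPM with vehicle; without both PAM 3 and PAM 4, 7 of the 9 rose. Of the microglia markers 2 were tested and neither passed, at a median log2 fold change of -0.73, and the 4 matched genes summed to 12.6 to 18.1 CPM with PAM and 15.4 to 46.0 CPM with vehicle. The part of these cells in the Pvalb, Calb1 and Nrgn increases was not tested.

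Nrgn (ENSRNOG00000010688; chromosome 8, 40015049 to 40023193, minus strand), a marker of excitatory forebrain neurons, reached 233, 233, 339 and 398 CPM in PAM 1 to 4, against 160, 172, 178 and 167 CPM in vehicle 1 to 4. All PAM libraries were higher, and they fell into a lower pair (PAM 1 and PAM 2) and a higher pair (PAM 3 and PAM 4), whereas the vehicle libraries were close together. The coefficient of variation was 27.2% with PAM and 4.46% with vehicle. The log2 fold change was 0.83 ± 0.15 (SE; edgeR, Benjamini-Hochberg adjusted p = 0.000692), and it was 0.47 without PAM 3 and PAM 4 (adjusted p = 0.000228) and 0.73 with each library's length trend removed (adjusted p = 0.000732). Over the 18 alternatives the adjusted p ran from 4.31e-10 to 0.00519. In the same libraries 5 of 9 tested excitatory neuron markers fell and 0 rose (median log2 fold change -0.84), with sums over 10 matched genes of 903 to 1024 CPM with PAM and 1400 to 1653 CPM with vehicle. In each fit without vehicle 2, 3 or 4, 3 of these markers fell.

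The 5 neuronal calcium sensors among the members were lower in every PAM library than in any vehicle library. Of 5 other tested sensor genes, described further below, 1 fell and 4 did not pass the test. Ncs1 (ENSRNOG00000008761; chromosome 3, 10553589 to 10602672, minus strand), the frequenin homologue that acts on transmitter release and phosphoinositide kinases, and whose promoter window holds TGACG over CAGCTG, had 155, 148, 182 and 181 CPM in PAM 1 to 4, against 264, 280, 290 and 286 CPM in vehicle 1 to 4. The gap between the groups exceeded the range within either. Its log2 fold change of -0.75 ± 0.11 (SE; edgeR, Benjamini-Hochberg adjusted p = 6.86e-05) was the lowest of the 10 members, and 6.06% of tested genes had a lower one. Hpcal4 (ENSRNOG00000050983; chromosome 5, 140870140 to 140882244, plus strand), a visinin-like sensor, had 181, 199.6, 243 and 204 CPM in PAM 1 to 4, against 313, 315, 325 and 328 CPM in vehicle 1 to 4. Vehicle libraries agreed closely (coefficient of variation 2.33%), and PAM 3 was the nearest of the PAM libraries to them. The log2 fold change was -0.63 ± 0.11 (SE; edgeR, Benjamini-Hochberg adjusted p = 0.000405).

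Vsnl1 (ENSRNOG00000005345; chromosome 6, 37001356 to 37122023, minus strand) encodes visinin-like protein, a myristoylated sensor of cortical and hippocampal neurons. Its level was 181, 232, 213 and 229 CPM in PAM 1 to 4, against 299, 297, 287 and 284 CPM in vehicle 1 to 4, with no overlap. Hpca (ENSRNOG00000006979; chromosome 5, 147294820 to 147303346, minus strand), hippocalcin, is a sensor of hippocampal pyramidal cells linked to the slow afterhyperpolarisation. It had 63.2, 62.0, 56.7 and 48.7 CPM in PAM 1 to 4, against 67.1, 84.0, 89.2 and 78.6 CPM in vehicle 1 to 4. PAM 1 and vehicle 1 were the nearest pair between the groups. Ncald (ENSRNOG00000042978; chromosome 7, 76199306 to 76488216, minus strand), neurocalcin delta, had 278, 308, 292 and 281 CPM in PAM 1 to 4, against 328, 366, 386 and 390 CPM in vehicle 1 to 4. The groups did not overlap, with vehicle 1 the lowest of its group. The log2 fold changes were -0.45 ± 0.10 for Vsnl1, -0.46 ± 0.13 for Hpca and -0.34 ± 0.10 for Ncald (SE; edgeR, Benjamini-Hochberg adjusted p = 0.00534, 0.0213 and 0.0221).

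The Hpca and Ncald calls did not survive every omission. Hpca lost its call without vehicle 2, 3 or 4 (edgeR, Benjamini-Hochberg adjusted p = 0.0753, 0.0793 and 0.0518; range over the 8 fits without 1 library 0.0164 to 0.0793) and without both PAM 3 and PAM 4 (log2 fold change -0.34, adjusted p = 0.08). The call on Ncald was lost without PAM 1 or any of vehicle 2, 3 and 4 (edgeR, Benjamini-Hochberg adjusted p = 0.0613, 0.0671, 0.077 and 0.0871; range 0.0136 to 0.0871). Ncs1, Hpcal4 and Vsnl1 passed in all 18 alternatives. With each library's length trend removed, the log2 fold change of Ncald was -0.30 (edgeR, Benjamini-Hochberg adjusted p = 0.0498). In that fit the values were -0.55 for Hpcal4, -0.68 for Ncs1, -0.52 for Hpca and -0.48 for Vsnl1. In the same libraries 3 of 11 pan-neuronal markers fell and 0 rose, at a median log2 fold change of -0.25, beside the 5 excitatory and 4 inhibitory markers that fell; without both PAM 3 and PAM 4, 6 of the 11 pan-neuronal markers fell. The part of the number or kind of neurons in the sensor decreases was not tested. Exons of Hpca share bases with Tmem54 on the other strand, which had 30 counts over all 8 libraries; whether reads were counted by strand is not stated.

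**Figure D2:**
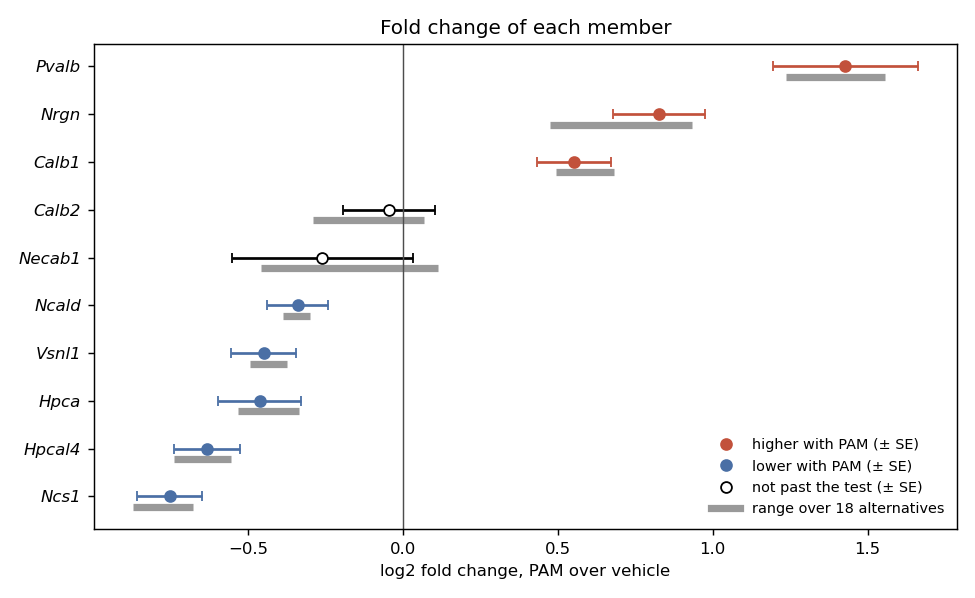
Log2 fold change of each gene, PAM over vehicle (points, ± SE), with the range over 18 alternative fits as a grey bar. The ranges of Pvalb, Nrgn and Calb1 stay above 0 and those of the 5 sensors below 0, while those of Calb2 (-0.29 to 0.07) and Necab1 (-0.46 to 0.11) cross it.

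Within the sensor family the decreases were compared by 10 of the 13 pair ratios. The Ncald to Ncs1 log2 ratio was 0.84, 1.06, 0.69 and 0.64 in PAM 1 to 4, against 0.31, 0.38, 0.41 and 0.44 in vehicle 1 to 4, so that Ncs1 lay lower relative to Ncald in every PAM library. The Vsnl1 to Ncs1 log2 ratio was also higher with PAM, by 0.30, and the Hpcal4 to Ncald log2 ratio was lower, by 0.30, again without overlap between the groups. These 3 pairs reached the smallest possible exact permutation p of 0.0286 (0.0743 after Benjamini-Hochberg adjustment over 13 pairs) and thus did not pass after adjustment. The other 7 sensor pairs had overlapping groups and exact permutation p-values of 0.143 to 1. Hpca to Vsnl1 differed least, with a mean log2 ratio of -1.89 ± 0.29 in PAM libraries and -1.88 ± 0.20 in vehicle libraries (SD, n = 4 each).

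Necab1 (ENSRNOG00000007256; chromosome 5, 28504558 to 28737719, minus strand) encodes a neuronal protein with an EF-hand region at its N terminus. It was the least abundant member per length, with 16.4, 18.6, 9.04 and 9.73 CPM in PAM 1 to 4 and 21.0, 16.2, 18.5 and 9.38 CPM in vehicle 1 to 4. PAM 3, PAM 4 and vehicle 4 were low and the other 5 libraries clearly higher, so the groups overlapped. The log2 fold change was -0.26 ± 0.29 (SE; edgeR, Benjamini-Hochberg adjusted p = 0.589), and it was 0.11 without PAM 3 and PAM 4 (adjusted p = 0.816). With 27 to 87 counts per library, its exons also share bases with LOC100912373, which had 37 counts in all.

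**Figure D3:**
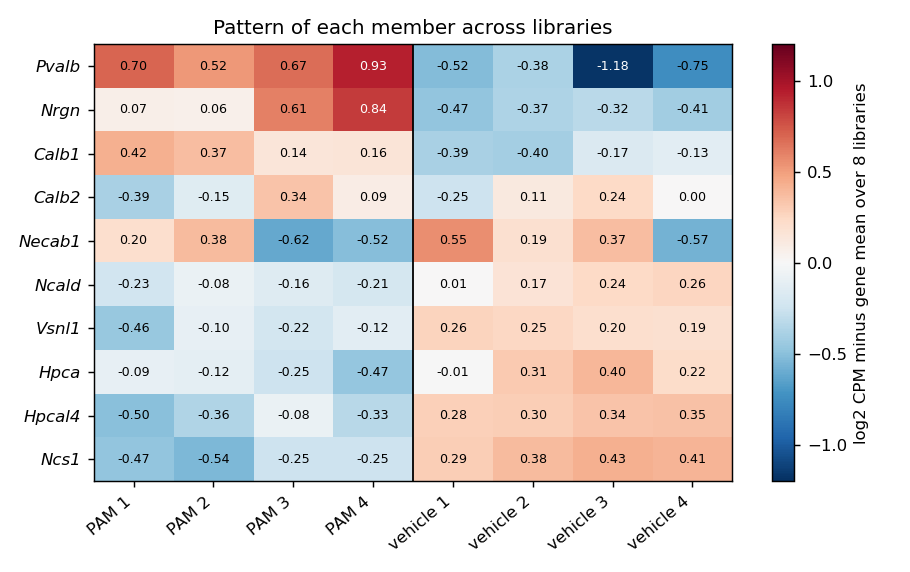
Log2 CPM of each gene in each library after subtraction of the gene's mean over the 8 libraries (colour and printed value), PAM libraries left of vehicle libraries. The 5 sensors at the bottom are negative in all PAM libraries, Nrgn is highest in PAM 3 and PAM 4 (0.61 and 0.84), and Necab1 is lowest in PAM 3 (-0.62).

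Patterns across the 8 libraries were compared by the root mean square difference of log2 CPM after centring each gene on its own mean, as a description without a test. Among the members the closest pair was Hpcal4 and Ncs1, at 0.10 log2 units, and the next were Hpca and Ncald and then Ncald and Vsnl1, both at 0.13. Among all tested genes with a symbol, those near to each member included Ptpn5 for Ncs1 (0.04), Bcl11a and Bcl2l2 for Hpcal4 (both 0.06), Kcmf1 and Clip2 for Ncald (both 0.04), Ank3 and Bcat1 for Vsnl1 (0.05 and 0.06), and Strn4 and Tnfrsf21 for Hpca (0.05 and 0.07). Calb1 was nearest to Shroom3 and Evi5 (0.06 and 0.08), Nrgn to Dgcr6 and Mdk (0.08 and 0.10) and Calb2 to Manbal and Tmub2 (both 0.07). Pvalb and Necab1, the members with the fewest counts, had more distant neighbours, Ppp1r32 and Pllp at 0.18 and Dctn4 and Cdc27 at 0.19 and 0.20. The median difference to all tested genes with a symbol ran from 0.36 for Ncald to 0.79 for Pvalb.

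Levels of different genes were compared as CPM per kilobase of exon. In PAM libraries the order was Nrgn (219 ± 59.7), Vsnl1 (111 ± 12.1), Ncald (86.0 ± 4.02), Calb1 (68.3 ± 6.86), Calb2 (65.4 ± 14.3), Pvalb (48.3 ± 5.96), Hpcal4 (44.3 ± 5.58), Ncs1 (37.6 ± 3.89), Hpca (32.6 ± 3.74) and Necab1 (3.05 ± 1.08; CPM per kilobase, mean ± SD, n = 4). The ranges of neighbours overlapped from Calb1 down to Hpca, so their order there is not separated by the spread between libraries. In vehicle libraries the order was Vsnl1 (151 ± 3.83), Nrgn (123 ± 5.5), Ncald (109 ± 8.39), Hpcal4 (68.6 ± 1.60), Calb2 (67.3 ± 9.48), Ncs1 (63.2 ± 2.60), Calb1 (46.7 ± 4.66), Hpca (45.0 ± 5.35), Pvalb (17.8 ± 4.24) and Necab1 (3.70 ± 1.14; CPM per kilobase, mean ± SD, n = 4). Here overlapping neighbours were Hpcal4 with Calb2, Calb2 with Ncs1, and Calb1 with Hpca. Nrgn ranked first per length in PAM libraries and second to Vsnl1 in vehicle libraries. The order depends on the division by length: by CPM alone Nrgn was first in PAM libraries and rank 5 in vehicle libraries, Ncald was rank 2 and rank 1, Vsnl1 rank 3 in both groups, and Pvalb rank 9 and rank 10. Per kilobase of exon, Pvalb lay above 83.0% of tested genes in PAM libraries and above 62.2% in vehicle libraries. It has 537 exonic bases, against a median of 2457 over the tested genes, so the division by length raises its place. The 10 genes together summed to 1337 to 1593 CPM in PAM libraries and 1618 to 1781 CPM in vehicle libraries, without overlap.

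**Figure D4:**
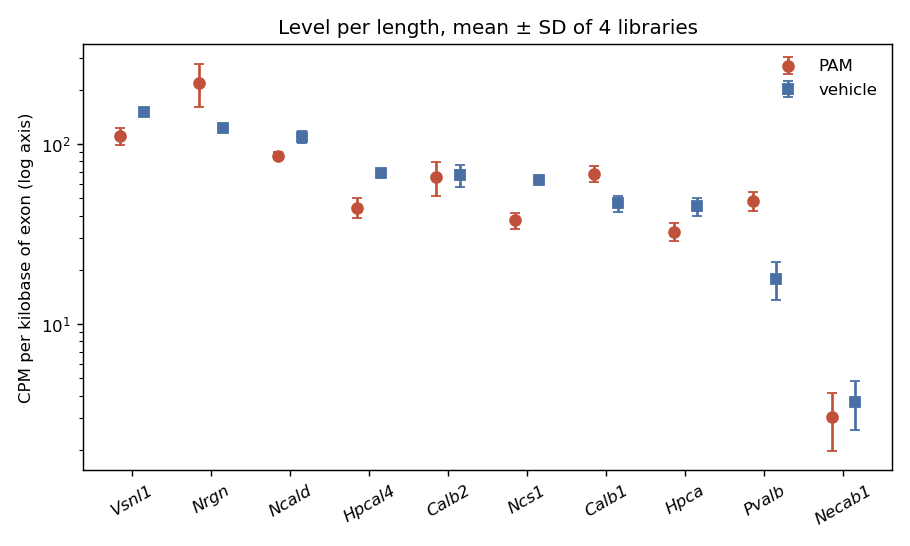
Level per kilobase of exon (CPM per kilobase, log axis; mean ± SD of 4 libraries) of each gene, PAM (circles) left of vehicle (squares), ordered by the vehicle level. Nrgn stands highest with PAM (219), Vsnl1 highest with vehicle (151), and Necab1 lowest in both groups (3.05 with PAM, 3.70 with vehicle).

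Other calcium-binding genes were set beside the members by 6 lists, of which 38 genes were tested, none of them from the list of other cytosolic buffers (1 gene matched); 11 rose and 7 fell, and their median log2 fold change was -0.14. Of the other neuronal calcium sensors, Kcnip1, a potassium channel-interacting protein, averaged 22.9 ± 4.30 CPM with PAM and 40.9 ± 4.44 CPM with vehicle (SD, n = 4 each; edgeR, Benjamini-Hochberg adjusted p = 0.00249), and it was the only one of the 5 tested to pass. The list's log2 fold changes ran from -1.04 to -0.41, with a median of -0.62, and 3 of the 5 passed without PAM 4 and with the length trend removed, and 2 without both PAM 3 and PAM 4. Of 5 tested CaBP, calneuron and NECAB genes 3 fell and 0 rose, with a median of -0.57. These were Cabp7 at -0.91 ± 0.17, Cabp1 at -0.57 ± 0.16 and Necab2, the paralogue of Necab1, at -0.47 ± 0.15 (log2 fold change ± SE; edgeR, Benjamini-Hochberg adjusted p = 0.000996, 0.0178 and 0.0337). Only 1 of the 5 passed without PAM 1 or vehicle 2, 3 or 4, though all 5 log2 fold changes stayed below 0.

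A further list held 9 calmodulins and small proteins that bind calmodulin or CaM kinase II. On it Calml4 rose, and Camk2n2, an inhibitor of CaM kinase II, and Gap43, a growth cone protein that shares neurogranin's calmodulin-binding motif, fell. Their log2 fold changes were 1.12 ± 0.21, -0.67 ± 0.21 and -0.31 ± 0.10 (± SE, edgeR, Benjamini-Hochberg adjusted p = 0.00109, 0.0294 and 0.0303). Without PAM 1 or vehicle 2, 3 or 4 no gene of that list passed as lower, and without PAM 2 or PAM 3 only 1 did; 4 did with the length trend removed. Without PAM 1 or PAM 2, and with upper-quartile scaling or no filter on low counts, 2 passed as higher. All 8 tested S100 genes, a family of EF-hand proteins with many glial members, rose (median 1.10 on the log2 scale), and 8 rose in each of the 18 alternatives (of 9 tested in 2 of them). S100b, which astrocytes express, averaged 1473 ± 124 CPM with PAM and 855 ± 39.5 CPM with vehicle (SD, n = 4 each; edgeR, Benjamini-Hochberg adjusted p = 2.15e-05). S100a16 and S100a11 rose by 0.85 ± 0.13 and 1.92 ± 0.31 log2 units. As given above, the astrocyte, oligodendrocyte and ependymal marker sums were higher in the same libraries, and their part in the S100 increase was not tested. Of 11 tested other EF-hand adaptor genes, Cib1 (0.83 ± 0.17) and Efhd1 (0.79 ± 0.24) rose and Tesc, a calcineurin homologue, fell (-0.96 ± 0.22), while the list's median was 0.06. On this list 1 gene passed as higher without PAM 1, vehicle 1 or vehicle 3, and 2 passed as lower without PAM 2.

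**Figure D5:**
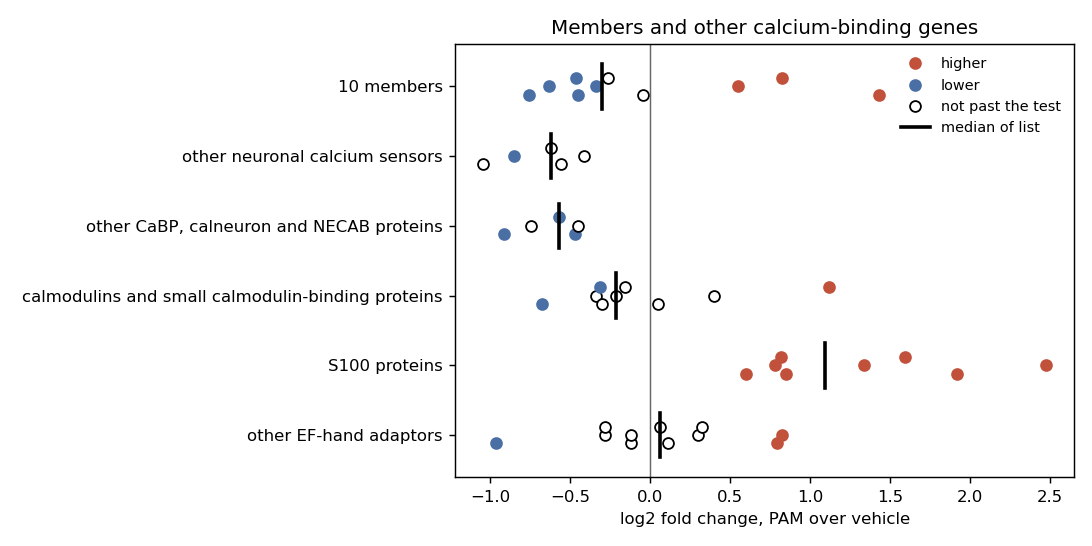
Log2 fold change, PAM over vehicle, of each tested gene of the 10 members and of 5 of the other calcium-binding lists (1 point a gene, filled where it passed edgeR's test, black line at the list's median). The sensor and CaBP lists lie below 0 throughout, with medians of -0.62 and -0.57, and the S100 list lies above 0 throughout, with a median of 1.10.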

How the data were processed

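Polyadenylated RNA of 8 libraries was sequenced, per the labels' protocols, and each library has a file of gene-level counts that the authors deposited unnormalised beside each gene's exons and their summed length. The submitters' processing notes name STAR, featureCounts, DESeq2, DESeq and Rnor_6.0; how strand and multi-mapped reads were handled is not stated. The gene symbols, including those of all 10 members, come from the comparison that the authors deposited. Where it gave a gene none, a RefSeq symbol not already in use was taken. Per the file headers, the columns of that comparison hold a mean signal of each group, a log2 fold change and a p-value with its adjusted form. In the authors' deposited table the members included 5 lower and 3 higher genes at an adjusted p under 0.05. The share of all genes called in that table was not taken. The DESeq2 fit made here called 1257 of 11740 tested genes lower and 1168 higher. The deposited comparison rests on the same libraries and is no separate evidence.

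Counts were tested in R 4.3.3 with edgeR 4.0.16 (filterByExpr, TMM, robust quasi-likelihood F test, group as the only term, Benjamini-Hochberg adjusted p under 0.05 over 11740 genes). "Rose" and "fell" are used of genes past this test. SE is the log2 fold change over the square root of F. Log2 CPM used a prior count of 2, and pair ratios were tested by an exact two-sided permutation test on counts with 0.5 added. Replicates of a group differed beyond sampling noise (chi-square per degree of freedom 2.77 to 14.8). Alternatives were DESeq2 1.42.0, limma-voom (limma 3.58.1), RLE and upper-quartile scaling, other filters, the replicate block, length-trend removal (loess, span 0.5), mitochondrial genes left out, and libraries left out. On simulated counts for PAM against vehicle (11594 genes tested) the procedure found 71.6% of the 67 genes with a true 2-fold change, 37.9% of the 66 with a 1.5-fold one and 98.5% of the 65 with a 4-fold one, and 8 of 145 calls were false. The simulated libraries had no length trend and far fewer changed genes than the 2218 called in the data. These rates may therefore not hold for the real libraries.

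The members and lists were chosen with earlier results of these data known. Named genes are all members, up to 3 genes with the smallest p among those past the test on each other calcium-binding list, and the 2 genes nearest in pattern to each member, of which 1 is not reported here; Slc32a1, Tmem54 and LOC100912373 were named after their values were seen.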

Additional observations from a re-analysis of the deposited data

How the results depend on the processing

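Counts over all genes stayed within 1.5 times the reported 2218 in all 18 alternatives (1527 to 2900), and 3 members were higher in each. Members lower numbered 5 in the reported fit and 3 to 5 without 1 library, with 3 in each fit without vehicle 2, 3 or 4. The log2 fold change of Calb2, -0.05 in the reported fit, ran from -0.18 to 0.068 without 1 library, changing sign without vehicle 3 (0.03), PAM 1 (0.068) or PAM 2 (2.38e-06); that of Necab1 was 0.11 without PAM 3 and PAM 4. The Hpca to Vsnl1 log2 ratio difference, -0.01, ran from -0.14 to 0.10 without 1 library and was 0.17 without PAM 3 and PAM 4. The causes were not tested. With 3 libraries against 4 the smallest exact permutation p is 0.0571, and with the replicate block 0.125, so those fits cannot keep a pair's raw call; a pseudocount of 1 kept all 5. Same-numbered PAM and vehicle libraries correlated at -0.06 to 0.07 in their deviations from the group means, so the numbers were not taken to pair them, and with the replicate block 954 genes were higher, 1110 lower and 8 of 10 members changed. Depth limits Pvalb and Necab1 most.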
